A study of Homo sapiens with 2 samples.

Results

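The miRNAs described here are the 10 mature arms of 5 hairpins known from immune cells, miR-146a, miR-146b, miR-155, miR-150 and miR-342, out of 2218 mature miRNAs in the table. They were taken by name, and all 10 were listed. Small RNA was sequenced from K562, a human leukaemia line with erythroid features that grows in suspension. The GFP group is K562 transduced with a GFP lentivirus and serves as the control. The QKI5 group is K562 transduced with a lentivirus for overexpression of QKI5, a form of the RNA-binding protein Quaking found mainly in the nucleus. Both groups thus carry a lentivirus, both are the same line, and each is 1 library. The time after transduction and the level of QKI5 were not analysed here. The comparison asks which miRNAs are more or less abundant in cells given QKI5.

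A miRNA is cut from a hairpin whose 5′ side gives the 5p arm and whose 3′ side gives the 3p arm. Usually 1 arm is kept in Argonaute and the other is mostly lost. Bases 2 to 8 of the mature miRNA, the seed, pair with target mRNAs. miR-146a and miR-146b are known for restraining Toll-like receptor signalling through the adaptor genes IRAK1 and TRAF6, and miR-146a is induced by NF-kB. miR-155 is induced in activated lymphocytes and macrophages, miR-150 is abundant in resting lymphocytes and represses MYB, and miR-342 lies in the gene EVL and is abundant in lymphocytes.

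The mature sequences of the 2 miR-146 hairpins and of miR-342 are shown because the results turn on them, with miR-155-5p for the hairpin that was nearly undetected. They come from RefSeq (GRCh38.p14), which gave a mature sequence for 8 of the 10 arms. Capitals mark the seed.
hsa-miR-146a-5p: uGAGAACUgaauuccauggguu
hsa-miR-146b-5p: uGAGAACUgaauuccauaggcug
hsa-miR-146a-3p: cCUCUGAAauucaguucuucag
hsa-miR-146b-3p: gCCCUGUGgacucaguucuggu
hsa-miR-342-3p: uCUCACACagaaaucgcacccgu
hsa-miR-155-5p: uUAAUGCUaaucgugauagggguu

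The 5p arms of miR-146a and miR-146b share 1 seed and 20 of the 22 bases over which they align from the 5′ end. The differences are G18A and U21C, with the base of miR-146a-5p first and positions counted from 1 at its 5′ end, and miR-146b-5p is 1 base longer at the 3′ end. A read cut short before position 18 would fit both, and the sources used here do not say which miRNA it was counted for. The 3p arms do not share a seed with each other. GC content was 40.9% for miR-146a-5p and miR-146a-3p, 43.5% for miR-146b-5p, 59.1% for miR-146b-3p and 52.2% for miR-342-3p. The 3 most abundant arms, miR-146b-5p, miR-342-3p and miR-146a-5p, begin with U.

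The hairpins of the 3 detected loci are given next, with both mature arms in capitals.
MIR146A: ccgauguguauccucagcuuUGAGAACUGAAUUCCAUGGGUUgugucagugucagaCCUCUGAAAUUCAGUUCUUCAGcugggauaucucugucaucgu
MIR146B: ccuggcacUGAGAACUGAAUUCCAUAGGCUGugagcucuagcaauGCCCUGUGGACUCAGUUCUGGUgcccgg
MIR342: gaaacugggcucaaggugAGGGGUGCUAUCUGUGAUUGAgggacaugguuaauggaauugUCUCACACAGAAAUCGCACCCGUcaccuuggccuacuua

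On GRCh38.p14, MIR146A lies at chr5:160485352-160485450 on the plus strand, where GENCODE 29 places it in an exon of the long noncoding RNA MIR3142HG. MIR146B lies at chr10:102436512-102436584 on the plus strand, in no other annotated gene. MIR342 lies at chr14:100109655-100109753 on the plus strand, in an intron of EVL, with 8 EVL transcripts and 0 exons over it. The arms of MIR155 span chr21:25573983-25574043 on the plus strand, in an exon of MIR155HG. These are positions of the reference, since the submitters' processing notes name hg19 and the table gives none. The hexamers ACUAAC and ACUAAU, forms of the element that QKI proteins are known to bind, were searched in the 3 hairpins on both strands. They differ in the last letter, so 1 position cannot match both on a strand. Either was present in 0 of the 3, while each was present on the hairpin's own strand in 0.768% of 1562 RefSeq hairpins of any length. That says only that these letters are not in the hairpin, and the flanking primary transcript was not searched.

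The GFP library rested on 23262340 reads and the QKI5 library on 6553945, a depth 3.55 times as large for GFP, with 66.3% and 59.5% of them on listed miRNAs. The erythroid marker miR-451a stood at 2187 RPM (reads in 1000000 of the library) in the presence of QKI5, and at 2798 RPM with GFP. Summed levels with QKI5 and GFP were 3320 and 4073 RPM for 5 erythroid arms, 86.8 and 70.2 RPM for 11 epithelial arms, 827 and 809 RPM for 6 neuronal arms, 3.05 and 0.516 RPM for 5 muscle arms, and 2660 and 2659 RPM for 9 stromal arms. Of all these, 0 arms were at 0 in both libraries, and the liver marker miR-122-5p had 0 RPM with QKI5 and 0.0430 RPM in the control. Their part in the results was not tested. All values below compare 1 library with 1 library, have no replicate check, and carry intervals for counting error only. No spread between cultures can be estimated, so no difference is tested against it. Nor can these reads be taken as independent molecules, since no molecular identifiers are available here. Fewer cells that make a miRNA and less of it per cell cannot be told apart.

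K562 cells held the miR-146 family and miR-342 at moderate levels and almost none of miR-155 and miR-150. Together the 10 arms stood at 1287 RPM in QKI5 cells and 783 RPM in GFP cells, which was 0.216% and 0.118% of the miRNA reads. Their summed level was 1.64-fold higher in the QKI5 library (95% exact counting interval 1.60 to 1.69). This holds for the deposited scaling of the columns, and other scalings moved the ratios of the single arms, as given below. Of the 10 arms, 5 reached a mean of at least 1 RPM over both libraries and are called measured. The other 5 had at most 5 reads in either library.

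**Figure D1:**
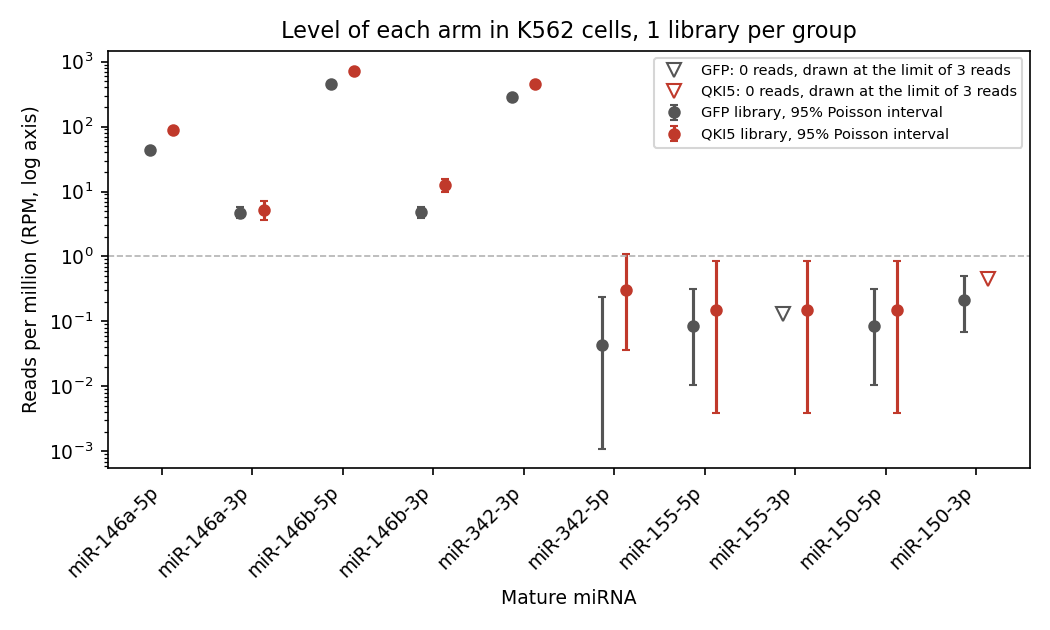
Level of each of the 10 arms in RPM (log axis) in the GFP and QKI5 libraries, 1 library each; bars are 95% Poisson counting intervals and open triangles are counts of 0, drawn at the limit of 3 reads. The 5 arms above the dashed line at 1 RPM run from 4.73 RPM to 728 RPM, and the arms of miR-155 and miR-150 lie at or below 0.215 RPM.

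miR-146b-5p, the guide arm of miR-146b, was the most abundant of the 10. It had 4768 reads with QKI5, 728 RPM (Poisson interval 707 to 748), and 10342 reads with GFP, 445 RPM (436 to 453). Its rank among all listed miRNAs was 58 with QKI5 and 76 with GFP. The QKI5 level was 1.64-fold the GFP level (1.58 to 1.69), a log2 ratio of 0.71. The counting intervals of the levels did not overlap, and the ratio lay short of 2-fold.

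miR-146a-5p, from a separate gene on chromosome 5, was the scarcer miRNA with the same seed. It had 582 reads with QKI5, 88.8 RPM (81.7 to 96.3), and 1000 reads with GFP, 43.0 RPM (40.4 to 45.7). The ratio was 2.07 (1.86 to 2.29), so it passed 2-fold while its counting interval held values on both sides of 2-fold. The log2 ratio was 1.04 as deposited. It was under 1 with the columns rescaled without the 10 most abundant miRNAs (0.94), under quantile normalization (0.82) and under a trimmed mean of log ratios (0.47, or 0.76 with only miRNAs of at least 1 RPM).

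The seed GAGAACU was carried by 3 listed miRNAs, miR-146a-5p, miR-146b-5p and miR-7153-5p. miR-7153-5p had 0 reads with QKI5 and 8 with GFP. The seed as a whole stood at 816 RPM in QKI5 cells and 488 RPM in GFP cells, a ratio of 1.67 (1.62 to 1.73) on the deposited scaling. miR-146b-5p held 89.1% of the reads with this seed in QKI5 cells and 91.1% of those in GFP cells. There were 12.2 miR-146a-5p reads per 100 miR-146b-5p reads with QKI5 (11.2 to 13.3) and 9.67 with GFP (9.05 to 10.3). This quotient of the libraries, which no single scaling factor per column moves, was 1.26 (1.13 to 1.41). The balance of the pair thus differed between the libraries by more than counting error, in favour of miR-146a-5p with QKI5, on the assignment of reads the authors used. For each other arm with a sequence, the arm itself was the only listed miRNA found with its seed.

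miR-342-3p, the kept arm of the hairpin in EVL, stood close behind miR-146b-5p. It had 2961 reads with QKI5, 452 RPM (436 to 468), and 6643 reads with GFP, 286 RPM (279 to 293), at ranks 76 and 98. The ratio was 1.58 (1.51 to 1.65) and the log2 ratio 0.66. The log2 ratio was 0.37 under the trimmed mean over miRNAs of at least 1 RPM and 0.09 under the trimmed mean over all, where that of miR-146b-5p was 0.42 and 0.13. There were 62.1 miR-342-3p reads per 100 miR-146b-5p reads with QKI5 (59.3 to 65.0) and 64.2 with GFP (62.3 to 66.3). The quotient of these was 0.967 (0.914 to 1.02), so a shift between miR-342-3p and miR-146b-5p was not detectable at this depth. Against miR-146a-5p, miR-342-3p reads were fewer with QKI5, 5.09 per read against 6.64 with GFP, a quotient of 0.766 (0.685 to 0.857).

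The passenger arms of the miR-146 hairpins lay far below the guide arms. miR-146b-3p had 82 reads with QKI5, 12.5 RPM (9.95 to 15.5), and 112 reads with GFP, 4.81 RPM (3.96 to 5.79). Its ratio of 2.60 (1.93 to 3.49) was the largest of the 5 measured arms, with a log2 ratio of 1.35. With the trimmed mean of log ratios it was 0.79, under 2-fold.

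miR-146a-3p had 34 reads with QKI5, 5.19 RPM (3.59 to 7.25), and 110 reads with GFP, 4.73 RPM (3.89 to 5.70). Its levels overlapped within counting error, with a ratio of 1.10 (0.724 to 1.62). Its log2 ratio was 0.13 as deposited and below 0 under both trimmed means (-0.43 and -0.15), quantile normalization (-0.18) and thinning of the GFP reads to the QKI5 total (-0.19), so it has no direction. In the GFP library miR-146a-3p and miR-146b-3p stood at about the same level, while with QKI5 there were 2.41 miR-146b-3p reads per miR-146a-3p read (1.60 to 3.71) against 1.02 with GFP (0.776 to 1.34).

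The proportion of the arms within a hairpin differed between the libraries, in opposite senses for miR-146a and miR-146b. miR-146a gave 5.84 3p reads per 100 5p reads with QKI5 (4.01 to 8.26) and 11.0 with GFP (8.95 to 13.4). The quotient was 0.531 (0.346 to 0.799). miR-146b gave 1.72 3p reads per 100 5p reads with QKI5 (1.37 to 2.14) and 1.08 with GFP (0.891 to 1.30). The quotient was 1.59 (1.18 to 2.14). Both intervals leave out 1, and neither depends on a scaling factor of the columns. Shifts of this size were common between these libraries. Among 167 hairpins with both arms at a mean of at least 1 RPM and a read in each library, the log2 quotient had a median of -0.18 and an SD of 1.09. It was larger in size than that of miR-146a (-0.91) in 37.1% of them and than that of miR-146b (0.67) in 50.9%.

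**Figure D2:**
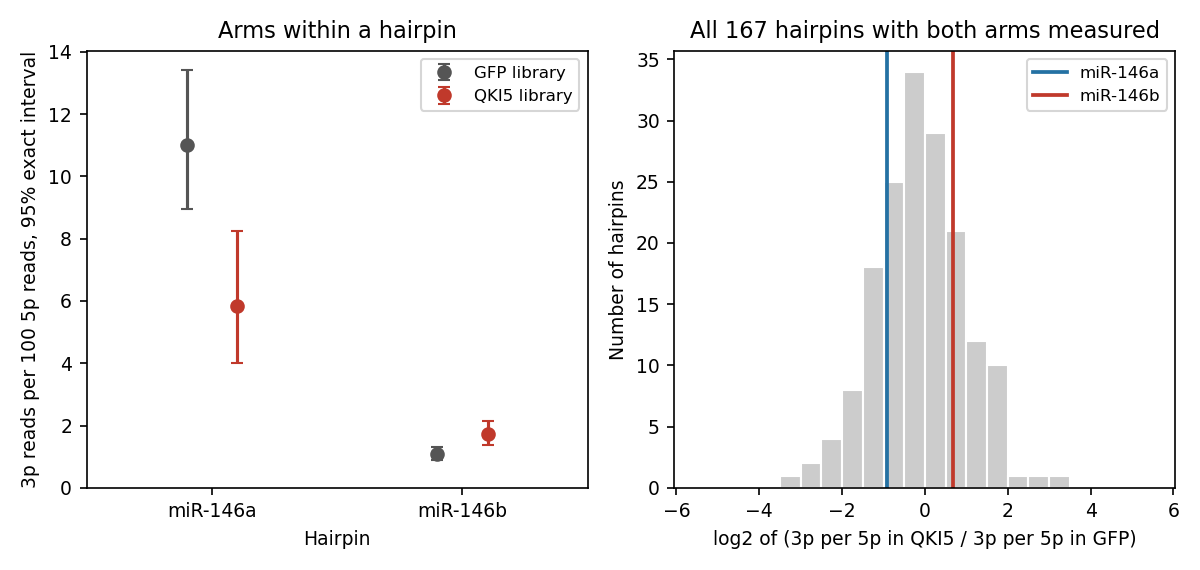
Left, 3p reads per 100 5p reads of miR-146a and miR-146b in the GFP and QKI5 libraries, with 95% exact counting intervals; right, number of hairpins by log2 of the QKI5 over GFP quotient of 3p per 5p reads, for all 167 hairpins with both arms measured. miR-146a goes from 11.0 with GFP to 5.84 with QKI5 and miR-146b from 1.08 to 1.72, and both quotients (lines at -0.91 and 0.67) lie inside the bulk of the hairpins.

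The remaining arm of a detected hairpin, miR-342-5p, had 2 reads with QKI5 and 1 with GFP, against 2961 and 6643 for miR-342-3p. That is 0.0675 miR-342-5p reads per 100 miR-342-3p reads with QKI5 and 0.0151 with GFP, with counting intervals that overlap (0.00818 to 0.244 and 0.000381 to 0.0839). Of the 3 detected hairpins, miR-342 had the most one-sided arms in either library.

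miR-155 and miR-150 were at the edge of detection. miR-155-5p had 1 read with QKI5 (0.153 RPM) and 2 with GFP (0.0860 RPM), and miR-155-3p had 1 and 0 reads. hsa-miR-150-5p had 1 read with QKI5 and 2 with GFP, and hsa-miR-150-3p had 0 and 5 reads. With 0 reads the level could still reach 0.458 RPM for QKI5 and 0.129 RPM for GFP by the limit of 3 reads, which is 1-sided, or 0.563 RPM and 0.159 RPM by the 2-sided Poisson interval used for the other counts. The 4 arms together had 3 reads with QKI5 and 9 with GFP, with upper 2-sided Poisson limits of 1.34 RPM and 0.734 RPM. The ratio of these sums was 1.18 with an interval from 0.206 to 4.74, so neither a rise nor a fall of several fold was detectable at this depth.

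The order of the levels was miR-146b-5p, miR-342-3p, miR-146a-5p, miR-146b-3p and miR-146a-3p in both libraries. Neighbours in that order differed beyond counting error, except miR-146b-3p and miR-146a-3p in the GFP library, and the 5 arms below them had overlapping intervals. Of the reads on the 10 arms, miR-146b-5p held 56.5% with QKI5 (Wilson 95% interval 55.5% to 57.6%) and 56.8% with GFP (56.1% to 57.5%). miR-342-3p held 35.1% (34.1% to 36.1%) and 36.5% (35.8% to 37.2%). miR-146a-5p held 6.90% (6.38% to 7.46%) and 5.49% (5.17% to 5.83%). miR-146b-3p held 0.972% (0.784% to 1.21%) and 0.615% (0.511% to 0.739%). The intervals of the shares did not overlap between the libraries for miR-146a-5p and miR-146b-3p, and they overlapped for the other 8 arms.

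Of the 5 measured arms, 2 passed 2-fold upwards with QKI5, miR-146b-3p and miR-146a-5p, while 0 passed it downwards and 3 did neither. Among all 604 miRNAs with a mean of at least 1 RPM, 21.2% passed 2-fold upwards and 7.45% downwards. With 5 arms, a count of 2 is not far from that background. In the level bands of these arms, 23% of miRNAs at 1 to 10 RPM, 26.2% at 10 to 100 RPM and 11.9% at 100 to 1000 RPM did so upwards. The interval lay wholly above 2-fold for 0 of the 5 arms and for 13.2% of the 604. At 1.5-fold, 4 of the 5 arms were higher, against 35.6% of the 604. All 5 had a log2 ratio above 0 as deposited, against 60.1% of the 604, but miR-146a-3p was below 0 under the 4 settings named above. An exact binomial test of the reads of the 2 libraries, with Benjamini-Hochberg adjustment at 0.05, called 4 of the 10 arms (miR-146a-5p, miR-146b-5p, miR-146b-3p and miR-342-3p) and 21.4% of 1995 detected miRNAs. That test compares these libraries and not the conditions. It reaches smaller differences where reads are many, and the 4 arms called were all among the 5 measured. The share called among the 604 was not computed, so the 21.4% is not a background matched for level.

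The median log2 ratio was 0.71 over the 5 measured arms and 0.24 over the 604, whose quartiles were -0.36 and 0.85. The median of the 604 moved with the scaling, by more than 0.1. It was 0.40 with the columns scaled to the summed listed miRNAs, 0.14 without the 10 most abundant, -0.01 under quantile normalization, -0.04 under a trimmed mean over these miRNAs and -0.32 under a trimmed mean over all. The share of higher among 2-fold calls moved with it, from 74.0% as deposited up to 82.0% with the columns scaled to the summed listed miRNAs and down to 50.3% under quantile normalization, 51.6% under a trimmed mean over these miRNAs and 29.02% under a trimmed mean over all. Relative to the median of the 604, the log2 ratio was 1.11 for miR-146b-3p, 0.80 for miR-146a-5p, 0.47 for miR-146b-5p, 0.42 for miR-342-3p and -0.12 for miR-146a-3p. These relative values stayed above 0 under all 10 settings for the first 4 and lay above 0 under 1 of the 10 for miR-146a-3p. The 10 settings are not separate checks of this. The scalings to the summed listed miRNAs and without the 10 most abundant, and both trimmed means, apply 1 factor per column. Subtracting the median cancels such a factor, apart from the effect of the pseudocount. By log2 ratio, 87.6% of the 604 lay below miR-146b-3p, 79.8% below miR-146a-5p, 69.4% below miR-146b-5p, 66.9% below miR-342-3p and 45.9% below miR-146a-3p.

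**Figure D3:**
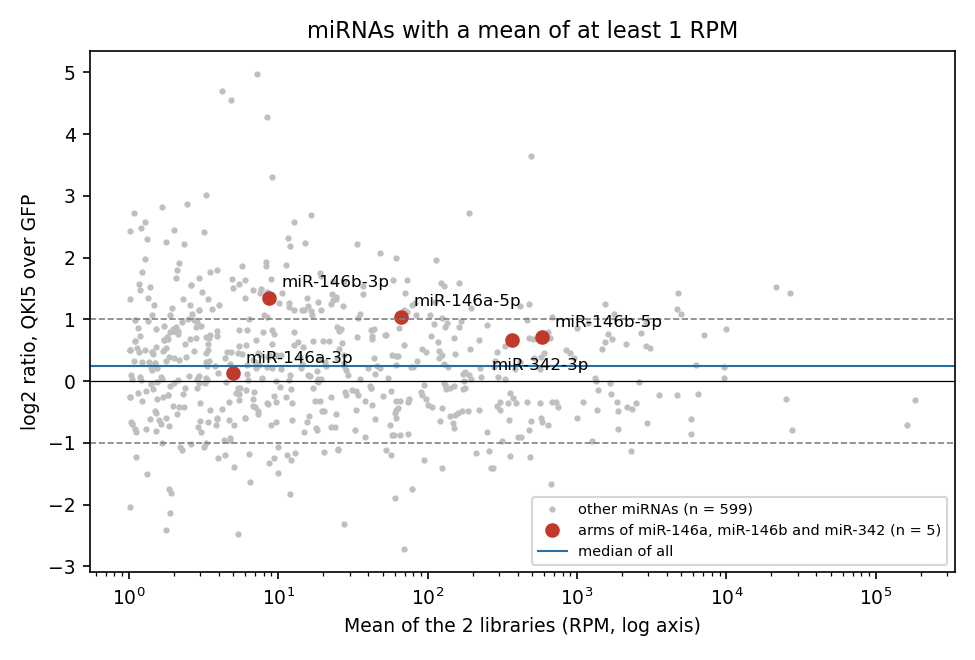
log2 ratio of QKI5 over GFP against the mean level of both libraries (RPM, log axis) for the 604 miRNAs with a mean of at least 1 RPM; red points are the 5 measured arms, dashed lines 2-fold and the blue line the median of all, 0.24. miR-146b-3p and miR-146a-5p lie above the upper dashed line, miR-146b-5p and miR-342-3p between it and the median, and miR-146a-3p just below the median, all within the cloud of other miRNAs.

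**Figure D4:**
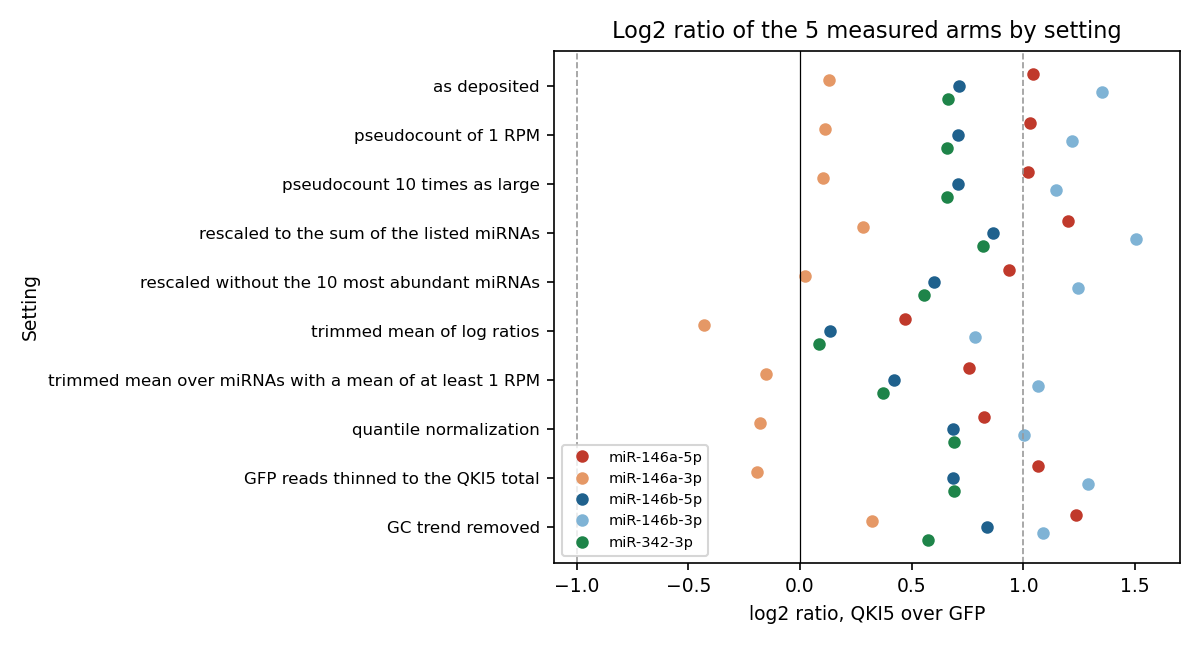
log2 ratio of QKI5 over GFP (x axis) of each measured arm under the deposited scale and 9 alternatives (y axis); dashed lines mark 2-fold. miR-146b-3p lies between 0.79 and 1.503, miR-146a-5p between 0.47 and 1.23, miR-146b-5p between 0.13 and 0.87, miR-342-3p between 0.09 and 0.82, and miR-146a-3p between -0.43 and 0.32, on both sides of 0.

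By closeness of the log2 ratio over the 2 libraries, the 3 miRNAs of at least 100 RPM most like miR-146b-5p were let-7a-5p (588 RPM with QKI5, 361 RPM with GFP, ratio 1.63), miR-183-5p (185 and 114 RPM, 1.62) and miR-107 (818 and 504 RPM, 1.62). With 2 libraries this likeness is that of a single ratio. A search of the RefSeq hairpins used here found no listed miRNA within 10 kb of the 4 loci given above. That reference gave a mature sequence for 1946 of the 2218 listed miRNAs, so a neighbour can have been missed. The nearest one found was miR-3142, 10827 bases from MIR146A in the same host transcript MIR3142HG. It was chosen after its values were seen and had 0 reads in both libraries. The same limits, 0.458 RPM for QKI5 and 0.129 RPM for GFP, apply to it.

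Other miRNAs that respond to Toll-like receptors or NF-kB gave a mixed picture. Of 13 arms, 9 were measured, of which 1 was past 2-fold upwards, 0 downwards and 8 neither, with a median log2 ratio of 0.23, beside 0.24 for the 604. That median ran from -0.35 to 0.38 over the settings. Among the 604, 21.2% were past 2-fold upwards and 7.45% downwards. The arm past 2-fold was miR-147b, a miRNA induced in macrophages, with 11.4 RPM in QKI5 cells against 3.95 RPM, a ratio of 2.89 (2.10 to 3.97). Its lowest log2 ratio over the settings was 0.93. miR-21-5p, induced in inflammation and in many tumours, was at 8796 RPM and 5257 RPM, a ratio of 1.67. Its log2 ratio ran from 0.17 to 1.05 over the settings. miR-132-3p, induced early by lipopolysaccharide, was at 12.97 RPM and 19.2 RPM, a ratio of 0.676 (0.530 to 0.855), below 1 under every setting run.

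Other lymphocyte miRNAs were measured in 21 of 23 arms, with 0 past 2-fold upwards, 2 downwards and 19 neither. Their median log2 ratio was -0.23, from -0.80 to 0.03 over the settings, beside 0.24 as deposited for the 604. Of those 604, 21.2% were past 2-fold upwards and 7.45% downwards. miR-142-3p, a miRNA of all blood lineages, stood at 10427 RPM in QKI5 cells and 8889 RPM in GFP cells. Its log2 ratio was 0.23, was above 0 under 7 of the 10 settings and reached -0.35. The arms past 2-fold were miR-26a-2-3p, 3.60-fold lower (2.54 to 5.27), and miR-181a-3p, 2.15-fold lower (1.75 to 2.66), whose log2 ratio was -0.94 with the columns scaled to the summed listed miRNAs. The summed level of the 23 arms of this list was 18446 RPM with QKI5 and 18968 RPM with GFP, with miR-142-3p as the largest single part.

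Myeloid miRNAs were measured in 11 of 11 arms, of which 3 were past 2-fold upwards, 1 downwards and 7 neither. Their median log2 ratio was 0.25, from -0.30 to 0.44 over the settings, beside 0.24 as deposited for the 604. Of those 604, 21.2% were past 2-fold upwards and 7.45% downwards. With 11 arms, counts of 3 and 1 are not far from that background. miR-27a-3p was 2.89-fold higher (2.88 to 2.91), with 32157 RPM in QKI5 cells and 11118 RPM in GFP cells. miR-24-3p was 2.34-fold higher (2.24 to 2.44), miR-24-2-5p 2.88-fold higher (1.28 to 6.39) and miR-424-3p 3.21-fold lower (2.03 to 5.36). The 3 higher arms had lowest log2 ratios of 0.94, 0.65 and 0.66 over the settings, each under 2-fold.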

How the data were processed

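One table of mature miRNAs in 2 K562 libraries was used. The values the authors deposited are RPM, though the table is named RPKM: in each column 100% of the values above 0 were whole multiples of 1 step (tolerance 0.1 of a read), 0.153 RPM for QKI5 and 0.0430 RPM for GFP, which recovered the reads. Bowtie 0.12.3 and hg19 are named per the submitters' processing notes; for the annotation, mismatches, shared reads and strand, the sources used here say nothing.

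Log2 ratios used a pseudocount of 0.153 RPM, which understates ratios of low miRNAs. Folds are plain RPM ratios with exact conditional binomial 95% intervals. A mean of at least 1 RPM and 2-fold were the filter and threshold. With 1 library per group there is no test of QKI5. Quotients of read ratios carry exact conditional odds-ratio intervals. The GC trend used RefSeq sequences, found for 535 of 604 miRNAs. The members, lists and settings were chosen with earlier results of these data known. The text names all members, from each of the 3 immune lists the most abundant miRNA, the 2 largest log2 ratios of at least 10 RPM and any other past 2-fold, and of the marker lists miR-451a and miR-122-5p alone. Functions were tested on simulated data. Python 3.11.15, numpy 2.4.6, scipy 1.17.1, pandas 2.3.3 and matplotlib 3.10.9 were used.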

Additional observations from a re-analysis of the deposited data

How the results depend on the processing

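The count of arms at least 2-fold higher, 2 of 5 as deposited, was 1 with the columns rescaled without the 10 most abundant miRNAs and 1 under quantile normalization and under a trimmed mean over miRNAs of at least 1 RPM (miR-146b-3p each time). It was 0 under the trimmed mean over all and 0 when the interval had to lie beyond 2-fold. It was 1 (miR-146a-5p) among the 200 most abundant or at 10 RPM, and 4 at 1.5-fold. With no level filter it was 4 of 10, with 1 arm lower, all added arms having at most 5 reads. Beside these counts, the share of the 604 at least 2-fold higher was 21.2% as deposited and 18.4% without the 10 most abundant. It was 13.9% under quantile normalization, and 13.7% and 9.27% under the trimmed means over miRNAs of at least 1 RPM and over all. At 1.5-fold it was 35.6%, and an interval beyond 2-fold was found for 13.2%. For the other level filters such shares are not given. The binomial test of the reads, which sets no fold, called 4 of the 10 arms, all higher with QKI5. It called 21.4% of 1995 detected miRNAs in either direction, and the share called higher is not given. The median log2 ratio of 0.71 was 0.87 scaled to the summed listed miRNAs, 0.60 without the 10 most abundant, 0.13 under the trimmed mean over all, 0.42 under that over miRNAs of at least 1 RPM and 0.84 with the GC trend removed. The trimmed mean over all took in 1265 miRNAs with a read in both libraries, whose median plain log2 ratio was 0.66; the cause of its shift was not tested. Under 9 alternatives, 41 of 45 values of the measured arms stayed above 0, the exceptions being those of miR-146a-3p given above. The trimmed mean over miRNAs of at least 1 RPM and the binomial test were chosen after seeing the data. Thinning was drawn once, and gave 0.140 miR-146a-3p reads per miR-146a-5p read in the GFP library against 0.110 for all reads. No paired analysis was possible because each group is 1 library. Depth limits miR-155, miR-150 and miR-342-5p, with at most 5 reads each.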
